A study of Homo sapiens with 12 samples.

Results

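The genes described here are 9 members of the interleukin-1 (IL-1) system: the cytokines IL1A, IL1B, IL18 and IL33, the antagonist IL1RN, and the receptors IL1R1, IL1RAP, IL1R2 and IL1RL1. They were chosen by gene symbol in the array's probe annotation, and all 9 were found among 18417 genes measured. Where a gene had several probe sets, that with the highest mean over the 12 arrays stood for it; each of these 9 genes had 1 probe set, so that rule decided nothing here. The cells were MCF10A, a non-tumorigenic human breast epithelial line, that stably carried a chimera of full-length human HER2, tagged with FKBP and HA. Untreated cells were compared with cells harvested 48 hours after AP1510, TGF-alpha or heregulin had been added, and each of the 4 groups had 3 arrays. AP1510 is a bivalent synthetic compound that joins FKBP-tagged receptors into homodimers. TGF-alpha binds EGFR, whereas heregulin binds HER3 and HER4. All 4 groups carried the chimera. All had been moved, 24 hours before ligand, from medium with 5% horse serum and 20 ng/ml EGF to medium without either. That medium kept insulin (10 microgram/ml), hydrocortisone (500 ng/ml) and cholera toxin (100 ng/ml), so a glucocorticoid was present in every group. The sources used here do not give the ligand doses, the promoter driving the chimera, whether the line is 1 clone, or when the untreated dishes were harvested. A difference in culture time and a response shared by the treatments therefore cannot be told apart. The labels state triplicate dishes, so p-values measure the spread between dishes of 1 line and their arrays.

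IL-1 alpha and IL-1 beta bind the receptor encoded by IL1R1, which recruits the co-receptor encoded by IL1RAP and signals through MYD88 and IRAK kinases to NF-kB. The pathway is restrained at the cell surface by the antagonist encoded by IL1RN, which occupies the receptor without recruiting the co-receptor, and by the decoy receptor encoded by IL1R2, which binds the cytokines but lacks a signalling domain. IL18 and IL33 encode related cytokines with receptors of their own, that of IL-33 being IL1RL1. In epithelia, IL-1 alpha and IL-33 are known as alarm signals released from damaged cells, and IL1R2 is known as a gene that glucocorticoids induce.

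Values are log2 intensities, 1 unit being a doubling, and each log2 change is followed by its standard error in a model of all 12 arrays. A gene passed when its p-value, adjusted over all 18417 genes within a comparison, was under 0.05. Array medians lay between 5.33 and 5.44, and the correlation over probe sets was 0.988 to 0.994 between arrays within a group. The 7 measured epithelial markers had means of 7.80 to 12.11, KRT5 being the highest. The 10 endothelial and fibroblast markers ran from 2.76 (LUM) to 8.52 (PECAM1), so PECAM1 read above the lowest epithelial marker. The 13 leukocyte markers had means of 2.95 to 7.75, CD68 being the highest. CD68 read higher than 79.5% of genes, TYROBP than 62.8% and CSF1R than 58.0%, whereas the pan-leukocyte gene PTPRC was higher than only 2.5%. Genes of other tissues, used as a reference for low signal, had means of 3.14 to 5.46 over 19 genes. Over 12 arrays IL33 averaged 3.07, IL1RL1 3.11, IL1A 4.10 and IL1B 4.78, none above that reference range, while IL1RN averaged 6.01, IL1RAP 6.57, IL1R1 7.83, IL1R2 7.85 and IL18 9.13. Probe sets differ in their response, so these averages place each signal against background and do not rank the genes by RNA abundance.

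**Figure D1:**
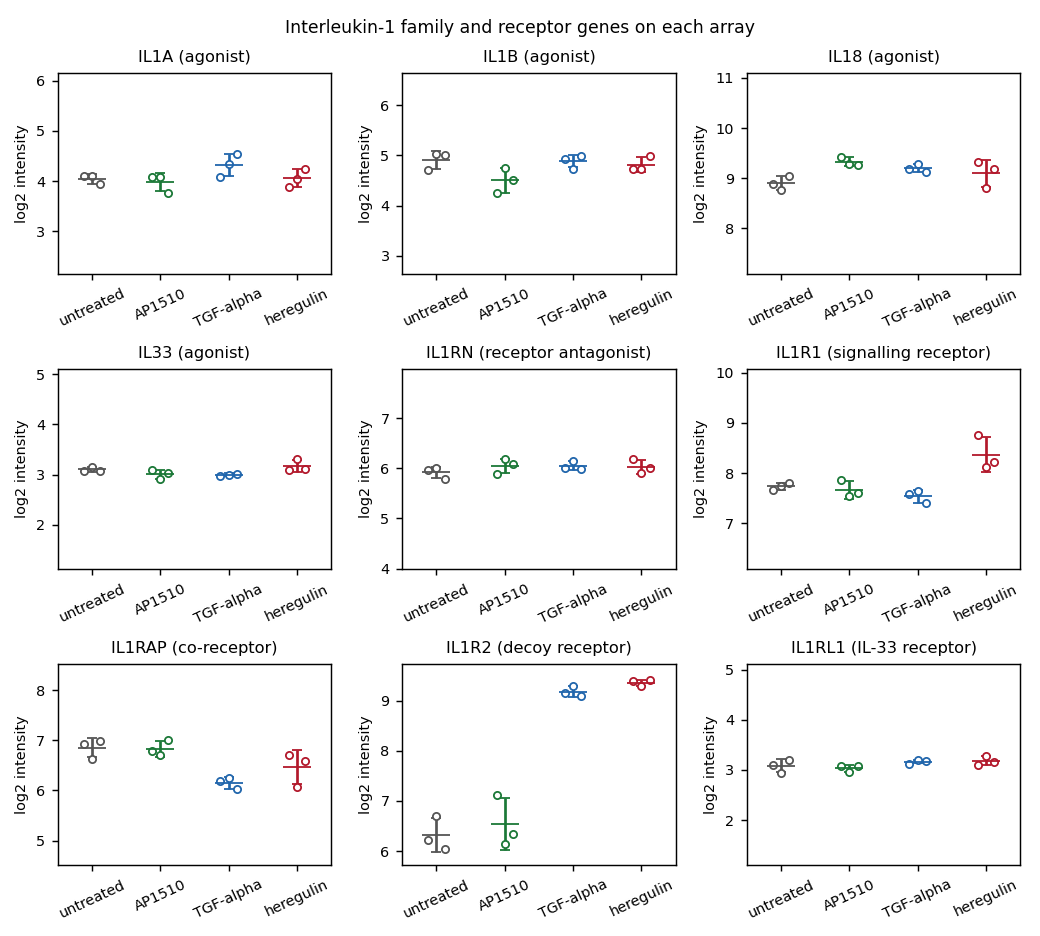
Log2 intensity of each of the 9 genes (panels, each spanning 4 log2 units) in the 4 groups; open circles are single arrays, horizontal bars are means and error bars are SD, n = 3. IL1R2 lies between 9.10 and 9.41 on all 6 arrays of TGF-alpha and heregulin and between 6.04 and 7.12 on the other 6.

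The decoy receptor IL1R2 had the widest range of group means among the 9 genes, 3.04 log2 units. It was followed by IL1R1 (0.83), IL1RAP (0.69), IL18 (0.43), IL1B (0.40) and IL1A (0.34), and by IL33, IL1RL1 and IL1RN with at most 0.18. By a test over the 4 groups together, 3 of the 9 genes differed, all of them receptors (IL1R2 with adjusted p = 5.2e-09, IL1R1 with adjusted p = 0.00086, IL1RAP with adjusted p = 0.0038), where 28.5% of all genes did. With AP1510, 0 of 9 passed in the limma fit, beside 1.47% of all genes, and 2 had an unadjusted p under 0.05. With TGF-alpha, 1 rose and 1 fell, beside 12.5% and 13.4% of all genes (26% in either direction). With heregulin, 2 rose and 0 fell, beside 3.45% and 5.06% (8.5% in either direction). Against AP1510, TGF-alpha had 2 members higher and 1 lower, beside 11.2% and 10.4% of all genes (21.6% in either direction), and heregulin had 2 higher and 0 lower, beside 3.27% and 3.95% (7.23% in either direction). Heregulin against TGF-alpha had 1 higher and 0 lower, beside 9.88% and 11.8% (21.6% in either direction). With 9 genes chosen with results known, these counts describe the list and say nothing particular to it. By absolute log2 change IL1R2 ranked 11 of 18417 genes with TGF-alpha and 6 with heregulin.

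**Figure D2:**
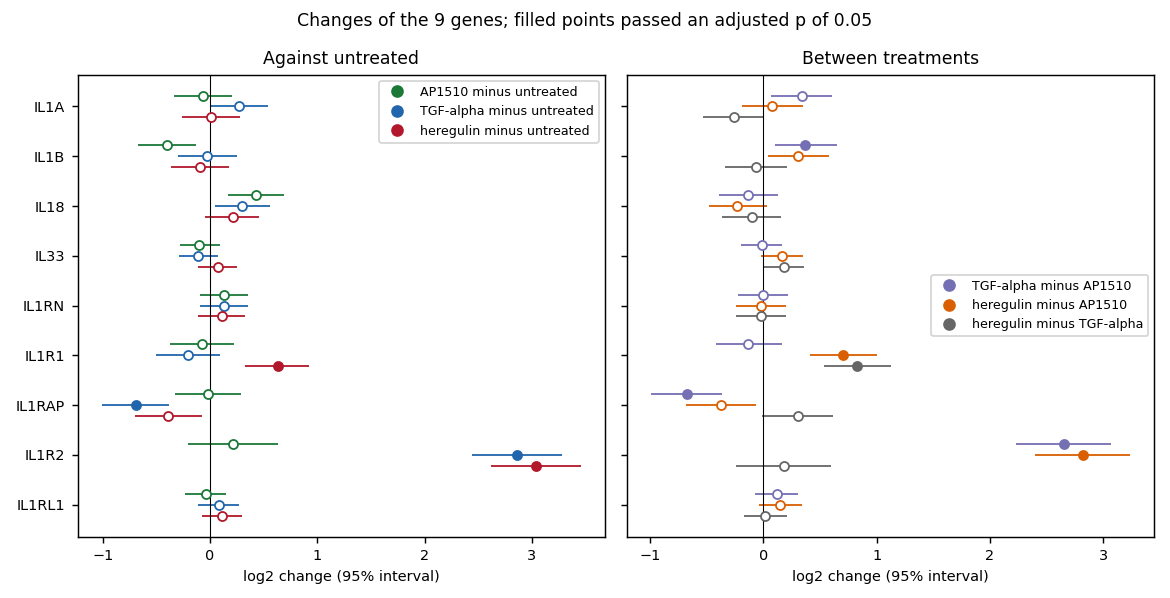
Log2 changes of the 9 genes against untreated (left) and between treatments (right), with 95% intervals from the fit, n = 3 arrays per group; filled points passed an adjusted p of 0.05. IL1R2 stands at 2.86 and 3.04 with the natural ligands and at 0.21 with AP1510.

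IL1R2 was high in the cells given either natural ligand and low in untreated and AP1510-treated cells. In untreated cells it read 6.23, 6.70 and 6.04 on the 3 arrays, and with AP1510 it read 7.12, 6.14 and 6.35. With TGF-alpha it read 9.15, 9.30 and 9.10, and with heregulin 9.39, 9.29 and 9.41. Every array of the natural ligands lay above every array of the other groups, while the untreated and AP1510 arrays overlapped, as did the TGF-alpha and heregulin arrays. The rise was 7.25-fold with TGF-alpha (log2 change 2.86 ± 0.20, adjusted p = 2.7e-08). Heregulin raised it 8.21-fold (log2 change 3.04 ± 0.20, adjusted p = 7.5e-08). Both comparisons share the untreated arrays. Set directly against AP1510, IL1R2 was 6.26-fold higher with TGF-alpha (adjusted p = 1.3e-07) and 7.08-fold higher with heregulin (adjusted p = 1.6e-07).

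AP1510 moved IL1R2 by 0.21 ± 0.20 on the log2 scale (95% interval -0.21 to 0.63, adjusted p = 0.79). That value rests on AP1510 replicate 1, the array at 7.12: without it the change was -0.08. The interval excludes a rise of the size seen with either natural ligand. Between heregulin and TGF-alpha the difference was 0.18 ± 0.20 (95% interval -0.24 to 0.60, adjusted p = 0.61), so these arrays did not separate the natural ligands by this gene. Over 20 alternative analyses, including 12 that left out 1 array each, the change ran from 2.72 to 3.04 with TGF-alpha and from 2.90 to 3.22 with heregulin.

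IL1R2 has 2 start sites in the RefSeq promoter table (GRCh38.p14), and the 250 bases before each are shown because this is the gene with the large change. The window before IL1RAP, the receptor gene that fell, is shown beside them. All 3 are on the plus strand and read 5′ to 3′. Capitals mark matches to the motifs searched.
IL1R2, chr2:101991710-101991959: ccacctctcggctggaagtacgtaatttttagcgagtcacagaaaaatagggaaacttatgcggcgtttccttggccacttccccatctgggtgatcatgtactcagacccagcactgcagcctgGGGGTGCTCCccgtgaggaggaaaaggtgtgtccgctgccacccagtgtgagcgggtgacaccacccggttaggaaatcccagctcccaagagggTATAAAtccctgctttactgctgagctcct
IL1R2, chr2:101998711-101998960: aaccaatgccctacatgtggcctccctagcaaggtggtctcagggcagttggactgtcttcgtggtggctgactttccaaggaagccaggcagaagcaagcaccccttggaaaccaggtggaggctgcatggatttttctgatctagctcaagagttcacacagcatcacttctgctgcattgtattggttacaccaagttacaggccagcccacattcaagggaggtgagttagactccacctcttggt
IL1RAP, chr3:190513835-190514084: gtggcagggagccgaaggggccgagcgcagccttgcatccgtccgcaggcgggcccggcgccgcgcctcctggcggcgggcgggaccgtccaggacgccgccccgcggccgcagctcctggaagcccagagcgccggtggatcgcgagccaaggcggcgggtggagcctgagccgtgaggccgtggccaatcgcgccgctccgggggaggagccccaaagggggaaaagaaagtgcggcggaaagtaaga
The motifs were searched on both strands: the NF-kB consensus, AP-1, C/EBP and TATA. AP-1 was searched as TGANTCA. C/EBP was searched as TTGC and AA with any 2 bases between them. TATA was searched as TATAAA. None of these motifs contains another. The first IL1R2 window held an NF-kB consensus match, GGGGTGCTCC, from 125 to 116 bases before the start, and TATAAA from 30 to 25 bases before it. The second IL1R2 window and the IL1RAP window held no match to any of them. Among 34941 RefSeq windows of the same length, 9.95% held the NF-kB consensus, 6.59% AP-1, 9.06% C/EBP and 10.8% TATA. Over the 17 windows of the 8 members in the table (all but IL18), 1 held the NF-kB consensus, 4 AP-1, 1 C/EBP and 5 TATA. Some of these windows overlap, such as both of IL1A. A match is a run of letters and shows no binding.

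IL1R1, the signalling receptor, was higher with heregulin than in each of the other groups. It read 7.67, 7.75 and 7.81 in untreated cells, 7.87, 7.54 and 7.60 with AP1510, 7.58, 7.64 and 7.40 with TGF-alpha, and 8.76, 8.13 and 8.23 with heregulin. All 3 heregulin arrays lay above the other 9, whose groups had means of 7.54 to 7.74. The rise against untreated was 1.55-fold (log2 change 0.63 ± 0.14, adjusted p = 0.0089). Heregulin stood 1.63-fold above AP1510 (adjusted p = 0.0048) and 1.78-fold above TGF-alpha (adjusted p = 0.00032). Heregulin replicate 1 was the highest array, and without it the change against untreated was 0.44 (adjusted p = 0.029). Neither AP1510 (log2 change -0.08 ± 0.14, adjusted p = 0.92) nor TGF-alpha (-0.21 ± 0.14, adjusted p = 0.35) passed.

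IL1RAP, the co-receptor shared by the IL-1 and IL-33 receptors, fell with TGF-alpha. It read 6.93, 6.63 and 6.98 in untreated cells, 6.78, 6.70 and 7.01 with AP1510, 6.19, 6.25 and 6.02 with TGF-alpha, and 6.71, 6.07 and 6.59 with heregulin. The TGF-alpha arrays lay below all untreated and AP1510 arrays, and heregulin replicate 2 lay within the TGF-alpha range. The fall was 1.62-fold against untreated (log2 change -0.69 ± 0.15, adjusted p = 0.0019) and 1.60-fold against AP1510 (adjusted p = 0.003). Heregulin gave a log2 change of -0.39 ± 0.15 that did not pass (adjusted p = 0.13), and its difference from TGF-alpha did not pass either (0.31 ± 0.15, adjusted p = 0.17). Without heregulin replicate 2 that difference was 0.50 (adjusted p = 0.009) and the change against untreated was -0.19 (adjusted p = 0.45). In order of mean the groups ran TGF-alpha, heregulin, AP1510, untreated, and no neighbours in that order differed past the threshold. IL1RL1, the IL-33 receptor, stayed between 2.93 and 3.28 on all 12 arrays, within the range of low signal, and passed in 0 of the 6 comparisons.

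The decoy and signalling receptors changed unequally. The within-array difference IL1R2 minus IL1R1 shifted from its untreated mean by 3.06 ± 0.06 log2 units with TGF-alpha (SD, n = 3), by 2.41 ± 0.31 with heregulin and by 0.29 ± 0.34 with AP1510. Its untreated SD was 0.36. The heregulin arrays, on which IL1R1 was higher too, ran from 2.05 to 2.60 and lay below all 3 TGF-alpha arrays. These shifts are descriptions without a test, and compare changes, not levels.

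Marker lists were read beside these changes. Of the 7 epithelial markers 2 rose with AP1510, 5 with TGF-alpha and 3 with heregulin, and 0 fell. Over all genes 0.771%, 12.5% and 3.45% rose and 0.7%, 13.4% and 5.06% fell with these treatments. On a linear scale the summed epithelial markers ran from 7628 to 8283 on untreated arrays, 8678 to 9994 with AP1510, 12729 to 13217 with TGF-alpha and 10636 to 10940 with heregulin. The summed 10 endothelial and fibroblast markers ran from 730 to 746, 734 to 781, 669 to 694 and 901 to 1012 in the same order. With heregulin 1 of these 10 rose, the matrix proteoglycan gene DCN (log2 change 1.59 ± 0.13), and 2 fell (CDH5 and PECAM1). The fibroblast gene LUM stayed at 2.74 to 2.78 in all groups, below the low-signal reference, where a change may not show. PDGFRB had its highest mean with heregulin (5.14) but did not pass against untreated (adjusted p = 0.39). With TGF-alpha 2 of the 10 fell, CDH5 and DCN. These counts stand beside 13.4% of all genes lower with TGF-alpha and, with heregulin, 3.45% higher and 5.06% lower. With AP1510 0 of the 10 passed in the limma fit, and 1 had an unadjusted p under 0.05. The summed 13 leukocyte markers ran from 605 to 694, 672 to 719, 532 to 563 and 658 to 724. Of these 13, 1 rose with heregulin (CSF1R) and 1 fell with TGF-alpha (CD68, a lysosomal protein gene), while 0 passed with AP1510, where 1 had an unadjusted p under 0.05. The part of these shifts in the receptor changes was not tested.

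The cytokine genes moved little. IL1A read 4.11, 4.10 and 3.94 in untreated cells, 4.08, 4.09 and 3.77 with AP1510, 4.09, 4.34 and 4.53 with TGF-alpha, and 3.88, 4.04 and 4.25 with heregulin. The 4 groups overlapped, and 0 of 6 comparisons passed, the nearest being TGF-alpha against AP1510 (0.34 ± 0.13, adjusted p = 0.07). Without TGF-alpha replicate 1 IL1A passed with TGF-alpha, at 0.39 against untreated (adjusted p = 0.044) and 0.46 against AP1510 (adjusted p = 0.023). IL33 stayed between 2.91 and 3.31 on all arrays, and 0 of its 6 comparisons passed. Both readings lie in the range of low signal, where an array understates fold changes.

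IL1B, the secreted IL-1 of activated cells, was lowest with AP1510. It read 4.71, 5.02 and 5.01 in untreated cells, 4.26, 4.76 and 4.51 with AP1510, 4.93, 4.74 and 4.98 with TGF-alpha, and 4.74, 4.73 and 4.99 with heregulin. The AP1510 arrays overlapped each other group, through replicate 2. AP1510 gave -0.40 ± 0.13 against untreated (adjusted p = 0.19). TGF-alpha stood 1.30-fold above AP1510 (log2 change 0.37 ± 0.13) at an adjusted p of 0.049. That call ended in 12 of 19 alternative analyses, among them those without replicate 2 or 3 of untreated, replicate 1 or 3 of AP1510 or of TGF-alpha, and replicate 1 of heregulin. Its adjusted p over the alternatives ran from 0.014 to 0.22, the highest without AP1510 replicate 1, where the change was 0.25.

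IL18, an epithelial cytokine made as an inactive precursor, was higher in each treated group by its mean but did not pass. It read 8.88, 8.76 and 9.04 in untreated cells, 9.43, 9.29 and 9.27 with AP1510, 9.19, 9.29 and 9.13 with TGF-alpha, and 9.33, 8.80 and 9.18 with heregulin. All AP1510 and TGF-alpha arrays lay above the untreated arrays, and heregulin replicate 2 lay among the untreated ones. The log2 change was 0.43 ± 0.12 with AP1510 (adjusted p = 0.11), 0.30 ± 0.12 with TGF-alpha (adjusted p = 0.081) and 0.21 ± 0.12 with heregulin (adjusted p = 0.38). Without heregulin replicate 2 the AP1510 and TGF-alpha changes passed (adjusted p = 0.026 and 0.022).

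IL1RN, the receptor antagonist, was the steadiest member with signal above the reference range. Its 12 arrays lay between 5.79 and 6.18 and its group means between 5.92 and 6.05. Its changes against untreated were 0.13 ± 0.10 with AP1510, 0.13 ± 0.10 with TGF-alpha and 0.11 ± 0.10 with heregulin (adjusted p = 0.73, 0.44 and 0.61). The upper ends of their 95% intervals were 0.35, 0.35 and 0.33. The within-array difference IL1RN minus IL1B shifted from its untreated mean by 0.53 ± 0.11 log2 units with AP1510 (SD, n = 3), 0.15 ± 0.22 with TGF-alpha and 0.20 ± 0.22 with heregulin, beside an untreated SD of 0.23. For IL1RN minus IL1A the shifts were 0.20 ± 0.25, -0.14 ± 0.24 and 0.10 ± 0.29. These are again descriptions. IL1A and IL1B read within the low-signal range, and the IL1B change with AP1510 did not pass (-0.40 ± 0.13, adjusted p = 0.19).

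The members on chromosome 2 lie among relatives, most of which gave low signal. In the RefSeq annotation (GRCh38.p14), the receptor genes IL1R2, IL1R1, IL1RL2, IL1RL1, IL18R1 and IL18RAP follow each other with no other protein-coding gene between them. IL1R2 rose with both natural ligands and its neighbour IL1R1 with heregulin. The other 4 genes passed in none of the 3 comparisons against untreated, with changes of -0.11 to 0.11. Their group means were at most 4.95, none above the low-signal range, so a change in them could not be measured well and whether they moved with IL1R2 and IL1R1 was not testable here. The ligand genes IL1A, IL1B, IL37, IL36G, IL36A, IL36B, IL36RN, IL1F10 and IL1RN also lie in a row of 9, and 0 of them passed against untreated with any treatment in the limma fit. Among these 9, IL1RN alone read above the low-signal range, so the same limit holds for the others. At an unadjusted p, IL1B passed 0.05 with AP1510 and IL1A with TGF-alpha (0.27 ± 0.13, adjusted p = 0.14). IL36G, an epithelial IL-36 cytokine, did so with heregulin (0.27 ± 0.12, adjusted p = 0.2).

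**Figure D3:**
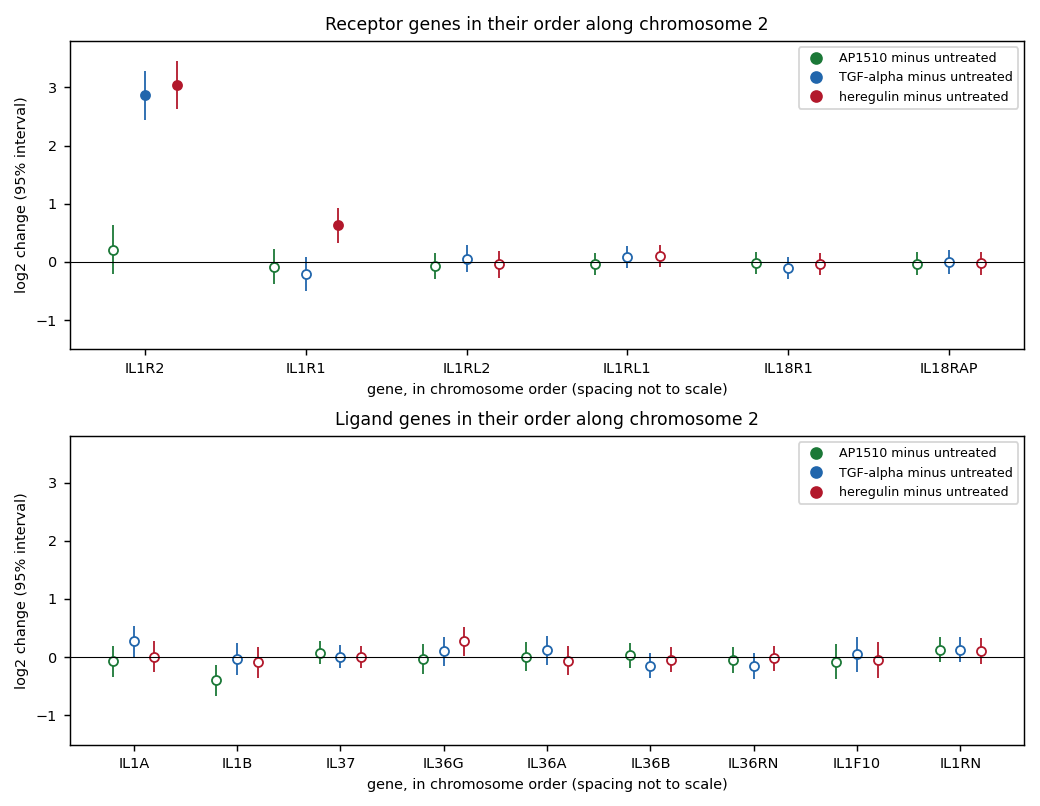
Log2 changes against untreated for the 6 receptor genes (top) and 9 ligand genes (bottom), in their order along chromosome 2 with spacing not to scale; bars are 95% intervals from the fit and filled points passed. IL1R2 stands at 2.86 and 3.04 with the natural ligands and IL1R1 at 0.63 with heregulin; the other 4 receptor genes, and all ligand genes but IL1RN, read no higher than the low-signal range, where a change may not show.

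The remaining genes of the pathway were counted from lists by role. Of 6 other IL-1 family cytokines, 0 passed against untreated with any treatment, and 0, 0 and 1 had an unadjusted p under 0.05 with AP1510, TGF-alpha and heregulin. Without heregulin replicate 1, 1 rose with heregulin. Of 7 other receptors and soluble inhibitors, 1 fell with TGF-alpha, SIGIRR, a receptor that restrains IL-1 signalling (log2 change -0.32 ± 0.10, adjusted p = 0.022), beside 13.4% of all genes lower. That count was 0 without replicate 2 of untreated, or without replicate 2 or 3 of TGF-alpha. The list had 0 passed with AP1510 and 0 with heregulin, with 1 gene at an unadjusted p under 0.05 in each, and 1 fell with heregulin without heregulin replicate 2.

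Among 16 measured genes of IL-1 processing and release, 1 rose and 4 fell with TGF-alpha, and 2 fell with heregulin. Over all genes 12.5% rose and 13.4% fell with TGF-alpha, and 5.06% fell with heregulin. CASP1, the protease that matures IL-1 beta and IL-18, read 7.31, 7.22 and 7.03 in untreated cells and 5.89, 6.06 and 6.04 with TGF-alpha, groups that did not overlap. Its fall was 2.28-fold with TGF-alpha (log2 change -1.19 ± 0.12, adjusted p = 9.9e-07). Under heregulin it was 1.38-fold (adjusted p = 0.019). CASP4, an inflammatory caspase, fell 1.31-fold and CARD8, an inflammasome sensor, 1.27-fold with TGF-alpha. CAPN2, a subunit of the calpain family that cleaves the IL-1 alpha precursor, rose 1.62-fold with TGF-alpha (adjusted p = 9.6e-06), whereas under heregulin it fell 1.28-fold (adjusted p = 0.015). The direct difference for CAPN2, heregulin minus TGF-alpha, was -1.04 ± 0.08 (adjusted p = 1.8e-07). CAPN1, another calpain gene of the list, went the other way with TGF-alpha. It fell 1.20-fold (log2 change -0.26 ± 0.09, adjusted p = 0.032), so the calpain genes did not move together. The heregulin count of 2 became 1 without untreated replicate 1, 2 or 3 and 0 without heregulin replicate 2. It was also 0 when only the 2 groups were fitted. With AP1510, 0 of the 16 passed and 3 had an unadjusted p under 0.05, and 1 fell without AP1510 replicate 3. Without heregulin replicate 3, 1 rose with heregulin.

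Among 18 measured signalling genes next to the receptor, 5 fell and 0 rose with TGF-alpha, beside 13.4% and 12.5% of all genes. MYD88, the adaptor of IL-1 receptors, read 8.06, 8.17 and 8.13 in untreated cells and 7.30, 7.38 and 7.38 with TGF-alpha, with no overlap, a fall of 1.71-fold (adjusted p = 3.4e-06). IKBKB, a kinase that frees NF-kB, fell 1.54-fold and TAB3, an adaptor of the TAK1 kinase, 1.27-fold. The others that fell were TRAF6 (log2 change -0.30 ± 0.09, adjusted p = 0.024) and TOLLIP (-0.28 ± 0.09, adjusted p = 0.03). The count of 5 became 3 without replicate 1 of untreated, or without replicate 1 or 3 of TGF-alpha. With heregulin IRAK2, a kinase that extends IL-1 signalling, passed as higher (log2 change 0.53 ± 0.11, adjusted p = 0.0057), from a mean of 5.20, which is within the low-signal range. Its changes with AP1510 (-0.11 ± 0.11) and TGF-alpha (-0.18 ± 0.11) did not pass. MYD88 did not pass with AP1510 (-0.09 ± 0.09) or heregulin (-0.13 ± 0.09). Under heregulin MAP3K3 fell 1.22-fold against untreated (adjusted p = 0.047). That call ended in 10 of the 12 refits without 1 array, and held only without AP1510 replicate 1 or heregulin replicate 3. Of the 18 genes, 1 rose and 1 fell with heregulin, beside 3.45% and 5.06% of all genes. With AP1510, 0 of the 18 passed and 1 had an unadjusted p under 0.05.

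The genes that IL-1 is known to induce, many of which other NF-kB stimuli induce too, went in different directions by ligand. Of 25 measured, heregulin had 11 higher and 2 lower. TGF-alpha had 1 higher and 12 lower, and AP1510 had 0 higher and 5 lower. Background shares of genes higher and lower were 3.45% and 5.06%, 12.5% and 13.4%, and 0.771% and 0.7% in the same order. The median log2 change over the 25 was 0.18, -0.23 and -0.24, beside 0.007, -0.009 and -0.015 over all genes. Heregulin against TGF-alpha takes no untreated array into the difference, though the spread in the fit came from all 12 arrays. It had 15 of 25 higher and 0 lower, with a median of 0.71. Over all genes 9.88% were higher and 11.8% lower, with a median of 0.026. The list was assembled with earlier results of these data known, so its counts are a description.

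SAA1 and SAA2, acute phase genes whose near-identical sequences an array may not separate, rose most with heregulin, 11.15-fold and 9.60-fold (adjusted p = 1.9e-11 for each). SAA1 read 7.25, 7.09 and 7.29 in untreated cells and 10.93, 10.53 and 10.60 with heregulin. SOD2, mitochondrial superoxide dismutase, rose 3.17-fold under heregulin (adjusted p = 8.5e-09), while TGF-alpha lowered it 2.50-fold (adjusted p = 2e-08). NFKBIZ, an IL-1-induced co-regulator of NF-kB, fell most with TGF-alpha, 4.92-fold (adjusted p = 2.1e-07), from a mean of 8.41 to a mean of 6.12 with no overlap of arrays. With AP1510 and heregulin NFKBIZ changed by -0.63 ± 0.20 each and did not pass (adjusted p = 0.16 and 0.06). The neutrophil chemokine gene CXCL1 fell 1.69-fold with AP1510 (adjusted p = 0.0057) and 3.58-fold with TGF-alpha (adjusted p = 2.3e-08). With heregulin it rose 1.94-fold (adjusted p = 9.7e-05). CXCL2, a related chemokine gene, fell 3.28-fold with TGF-alpha (adjusted p = 8.6e-06). Its changes with AP1510 (-0.58 ± 0.21) and heregulin (-0.19 ± 0.21) did not pass. CCL20, a chemokine gene of epithelia, read 4.32 in untreated cells, 4.97 with TGF-alpha and 5.34 with heregulin by its means, all within the low-signal range. It passed as higher with TGF-alpha (log2 change 0.65 ± 0.16, adjusted p = 0.0051) and with heregulin (1.01 ± 0.16, adjusted p = 0.00049). It made up the TGF-alpha count of 1 higher, which was 2 without untreated replicate 2 and 0 with dim genes left out. LIF and IL6, both cytokines of the IL-6 family, fell with all 3 treatments. LIF fell from a mean of 6.09 to 4.92 with AP1510, 5.08 with TGF-alpha and 4.77 with heregulin, and IL6 from 5.57 by log2 changes of -1.02 ± 0.13, -1.57 ± 0.13 and -0.65 ± 0.13 in the same order. The treated means of both lie within the low-signal range, where folds are understated, so the sizes of the falls are not compared between treatments. With AP1510 the count fallen was 3 when all probe sets were tested together.

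**Figure D4:**
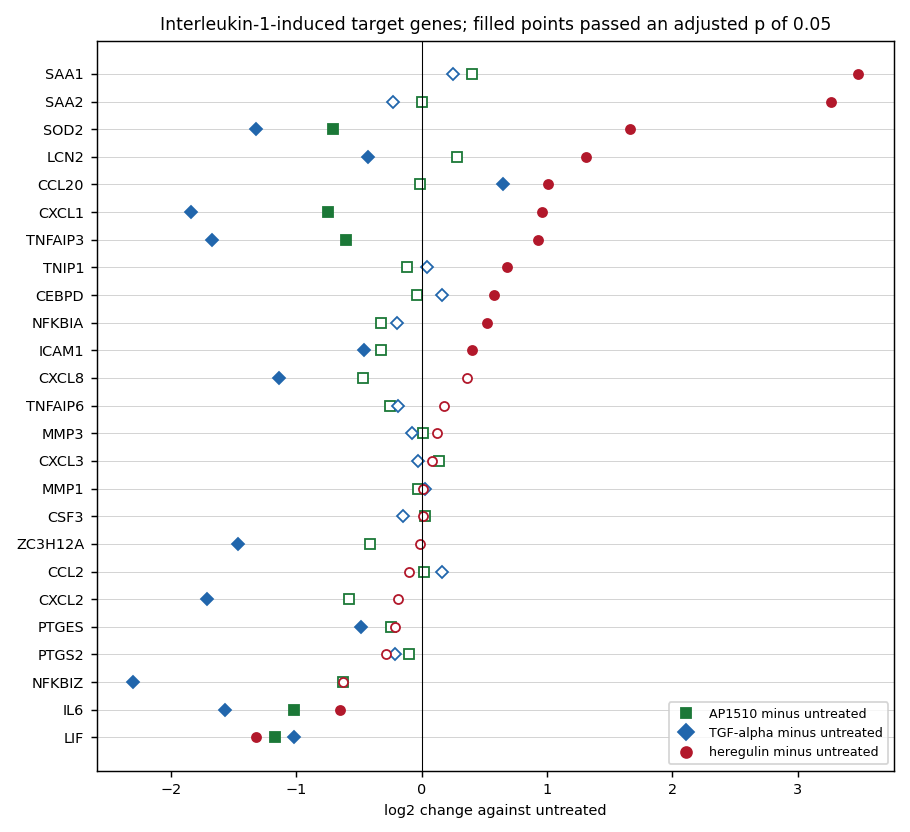
Log2 change against untreated for the 25 measured IL-1-induced genes (rows, ordered by their change with heregulin), with AP1510 as squares, TGF-alpha as diamonds and heregulin as circles; filled symbols passed an adjusted p of 0.05. The 3 comparisons share the untreated arrays; SAA1 and SAA2 reach 3.48 and 3.26 with heregulin.

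IL1R2 did not follow the same order of the groups as SOD2 and SAA1, picked from these target genes. IL1R2 was high with TGF-alpha and heregulin alike. SOD2 differed between these ligands by 2.99 ± 0.09 log2 units (heregulin minus TGF-alpha, adjusted p = 3e-12) and SAA1 by 3.23 ± 0.11 (adjusted p = 1.6e-11). CCL20, of the same list, passed as higher with both natural ligands, as IL1R2 did. Its difference between them did not pass (0.37 ± 0.16, adjusted p = 0.12), at low signal. The list as a whole was not compared with IL1R2.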

How the data were processed

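Biotin-labelled total RNA of 12 dishes was read on Affymetrix arrays, per the labels. The authors deposited log2 intensities made with RMA, per the submitters' processing notes (RMA by design corrects background, quantile-normalizes and summarizes by probe set); the sources used here give no version, and no depth applies. RMA draws low signals together, which understates fold changes near background. Of 33297 probe sets, 19460 named exactly 1 gene in the platform annotation, 1754 several and 12083 none; 19429 of the single-gene probe sets were matched to RefSeq symbols (GRCh38.p14) by Entrez ID. The probe set with the highest mean stood for each of 18417 genes.

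All arrays entered 1 model in limma 3.58.1 (R 4.3.3), with 8 residual and 7.55 prior degrees of freedom. The 6 contrasts were tested two-sided, with Benjamini-Hochberg adjustment over all genes and a threshold of 0.05, and a moderated F test covered the 4 groups. Alternatives were other scaling, a filter on dim genes, other variance models, array weights, other probe set rules, 2-group fits and leaving out each array. No batch is given in the labels. The members and lists were chosen with earlier results of these data known. All 9 members are named; from each pathway list the 3 largest rises and 3 largest falls that passed against untreated are named. Values of these genes in other comparisons, the markers that passed, and the further list genes CAPN1, TRAF6 and TOLLIP were chosen after their values were seen. Promoter windows are the 250 bases before each RefSeq start.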

Additional observations from a re-analysis of the deposited data

How the results depend on the processing

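Over 20 alternatives, the calls of IL1R2 (TGF-alpha and heregulin, each against untreated and AP1510), IL1R1 (heregulin against each other group) and IL1RAP (TGF-alpha against untreated and AP1510) all kept their direction and passed, with a highest adjusted p of 0.042 for IL1R1 without untreated replicate 1. No member call changed sign. The call lost was that of IL1B in TGF-alpha against AP1510. In that contrast the members higher were 2, and 1 after quantile normalization again, with dim genes left out (IL1A, IL1B, IL33 and IL1RL1 fall below 5.37, the median of all values), with trended and robust eBayes, with all probe sets tested and with only the 2 groups compared, and 1 to 2 with 1 array left out. Trended and robust eBayes and array weights each gave 1 member higher with AP1510 and 2 with TGF-alpha against untreated, and the fit of only the 2 groups also gave 2 with TGF-alpha. Leaving out 1 array gave 0 to 1 and 1 to 2. Array weights gave 2 higher for heregulin against TGF-alpha (1 to 2 with 1 array left out) and 5 members in the test over the 4 groups (3 to 4 with 1 array left out). They also gave 3 members higher for heregulin against untreated and 3 for heregulin against AP1510. Each of those counts was 2 in the main fit and with 1 array left out. Only the calls of IL1A, IL1B, IL18 and IL1RAP (heregulin against TGF-alpha) changed under any alternative. No paired analysis was possible because the labels give no replicate number shared between groups. With 3 arrays a group, changes of the size seen for IL18 and IL1B lie near the limit of what passes.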

Other observations

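The genes whose log2 level followed IL1R2 most closely over the 12 arrays, among all 18408 genes that are not members, were MT1E (Pearson r = 0.992), SCNN1G (r = 0.984), SGPP2 (r = 0.984), POP1 (r = 0.983) and MT1G (r = 0.980). MT1E and MT1G encode metallothioneins, SCNN1G a subunit of the epithelial sodium channel, SGPP2 a sphingosine phosphate phosphatase and POP1 a subunit of RNase P. The group means spanned 2.79 log2 units for SCNN1G and 1.88 for MT1E, beside 3.04 for IL1R2. These correlations are descriptions over arrays that share 4 treatments, and no test was made.

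Among the cytokines IL18 had the widest range of group means, 0.43 log2 units. The genes nearest to it were CEP97 (r = 0.899), RAB10 (r = 0.896), SGMS1 (r = 0.895), ZC3H13 (r = 0.880) and AP3B1 (r = 0.879), with ranges of 0.38, 0.16, 0.18, 0.18 and 0.27. Between members over the 12 arrays, the correlation lowest below 0 was that of IL1R2 and IL1RAP (r = -0.77), and the highest was that of IL1R2 and IL1RL1 (r = 0.57), the latter at low signal.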
